A study of Rattus norvegicus with 4 samples.

Results

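The genes described here build the junctions between epithelial cells and set their polarity. They comprise claudins, tight junction scaffolds, cadherins and catenins, nectins, polarity complexes and connexins, together with transcription factors, splicing factors and a membrane protease system of epithelia. A list of 56 gene symbols, the members, was matched to the probe sets whose annotation gives exactly 1 symbol. It found 38 genes with 54 probe sets, out of 10411 genes with 12783 such probe sets in the whole table. The levels of the other 18 were not analysed here: Cldn6, Cldn9, Cldn15, Cldn23, Marveld2, Tjp3, Cgn, Jam2, Jam3, Cxadr, Nectin3, Crb3, Pals1, Pard6a, Esrp1, Esrp2, Grhl2 and Spint1. Some of these enter the promoter search below. Of the 38 genes, 6 had a mean signal under the limit for dim genes and 32 were tested.

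All samples were RTEC11 cells, a tracheal epithelial line from transgenic rats that carry a temperature-sensitive large T antigen of simian virus 40. This viral protein binds p53 and the retinoblastoma proteins. The nonpermissive group was kept at 39 °C for 3 days, where the antigen loses activity, and the permissive group at 33 °C for 3 days, where it is active. Each group had 2 arrays, and both groups carry the transgene. Temperature and antigen activity changed together, so their parts in any difference cannot be told apart, and the results are those of a single cell line. Whether the replicates came from separate cultures is not stated. The p-values rest on how far the 2 arrays per group differ, in each gene and pooled over genes of like intensity. These differences between arrays may be technical.

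In an epithelial sheet the tight junction lies nearest the free surface. Claudin strands there set which ions pass between cells. Occludin is found along the strands, JAM proteins bind scaffold proteins, and the scaffold ZO-1 links claudins to actin. Below the tight junction, the adherens junction joins cells through E-cadherin, which reaches actin through the catenins, and through nectins, which do so through afadin. The Crumbs, Par and Scribble complexes keep the apical and basolateral surfaces apart, and in the airway this sheet separates inhaled air from the tissue.

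Replicate arrays correlated at 0.981 at 39 °C and 0.978 at 33 °C, against 0.951 to 0.953 between temperatures. Levels are normalised log2 intensities after adding 16, and the limit for dim genes was a mean of 6.60. The epithelial label held up by its markers. Of 9 epithelial markers with a probe set, 8 lay above the limit, and their summed normalised intensities were 80133.7 and 79313.7 at 39 °C against 70348.6 and 73568.9 at 33 °C. Krt5 was the marker under the limit. The single markers went both ways: Epcam, Krt8 (0.23) and Krt19 (0.77) were called higher and Krt7 (-0.45) and Krt18 (-0.36) lower. Of 12 fibroblast and smooth muscle markers 3 lay above it (Col3a1, Des and Acta2), with list sums of 926.1 and 797.6 at 39 °C against 575.9 and 701.7 at 33 °C. Col3a1 was called higher by 1.61 ± 0.27 (SE) on the log2 scale, and Acta2 was not called at -0.32. Des, called higher at 0.83 ± 0.27 (SE), was no longer called when nonpermissive replicate 1 (0.62) or permissive replicate 1 (0.64) was left out. Of 4 airway secretory and ciliated markers 2 lay above it, with list sums of 823.9 and 633.2 at 39 °C against 250.4 and 351 at 33 °C. The club cell gene Scgb1a1 was called higher and Tppp3, a gene of ciliated cells, lower. Col3a1, Des, Scgb1a1 and the epithelial marker Krt15 passed the filter only through their 39 °C levels, since their 33 °C means were under the limit. Krt15 had means of 7.16 at 39 °C and 6.52 at 33 °C and was not called. Under the limit over all arrays, Myh11 read 7.09 and 6.96 at 39 °C against 5.01 and 5.36 at 33 °C, while Col1a1 (difference -0.29) and Thy1 (-0.48) were lower at 39 °C. No endothelial marker of 5 and 1 immune marker of 7 (Csf1r) lay above the limit. Endothelial sums were 161.1 and 73.8 at 39 °C against 69.8 and 79.0 at 33 °C, and immune sums 287.3 and 310.5 against 353.9 and 381.3. No marker was at 0, and the part of these markers in the results was not tested. In bulk RNA, fewer cells of a type and less RNA per cell cannot be told apart.

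The junction genes that changed were mostly higher at 39 °C. Nectin1, claudin-4, JAM-A, EpCAM, 3 polarity genes and the transcription factor Elf3 rose. Nectin2, afadin and connexin 43 rose by the brightest of their probe sets, while further afadin and connexin 43 probe sets above the limit were not called. Afadin, JAM-A, EpCAM, connexin 43, Patj and Scrib were not called with arrays scaled to spike-in controls. All 3 tested catenins rose too, where 23.1% of all genes were called higher. With that scaling the signs of Ctnna1 and Ctnnb1 turned and the Ctnnd1 call was lost. E-cadherin, occludin, ZO-1 and claudin-3 were not called, but were called lower with that scaling. Of the 32 tested, 14 were called higher and 2 lower (limma, adjusted p under 0.05). The called share was 50%, against 49.1% of all 7016 genes tested, so the number of calls was that of the background. Calls of higher level made up 43.8% of the members, against 23.1% of all genes, and calls of lower level 6.25%, against 26.1%. The 39 °C and 33 °C arrays did not overlap in 23 members, or 71.9%, against 75.1% of all genes. Called changes of at least 2-fold were found in 3 members, or 9.38%, against 10.9% of all genes. The median log2 change was 0.27 over the members and -0.04 over all genes, and the median size of change, sign aside, was 0.38 and 0.37. These figures describe the list and are no test of it.

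Array scaling changed how many members counted as higher or lower. With arrays scaled to their poly-A spike-in controls, 5 of 32 members were called higher and 10 lower, against 800 and 3359 of 7015 genes. Of the members' calls, 33.3% were then of higher level, against 87.5% after quantile normalisation. Over all genes, calls of higher level were 47.0% of all calls after quantile normalisation, 52.3% on the deposited scale, 36.7% with median centring and 19.2% with spike-in scaling. Spike-in scaling moved the median of all genes by -0.32 to -0.36, and that of the members to -0.15. Relative to all genes, the median of the members lay 0.31 higher after quantile normalisation and 0.21 higher on the other scales, which differ by 1 shift per array and so must give the same distance. Of the 16 calls, 6 held under every scaling and with each array left out: Nectin1, Elf3, Nectin2, Cldn4 and Prkcz as higher and Klf4 as lower. For Nectin2 this covers only its brightest probe set. A second one was called lower (-0.82), and the mean of the Nectin2 probe sets changed by 0.32 without a call.

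**Figure D1:**
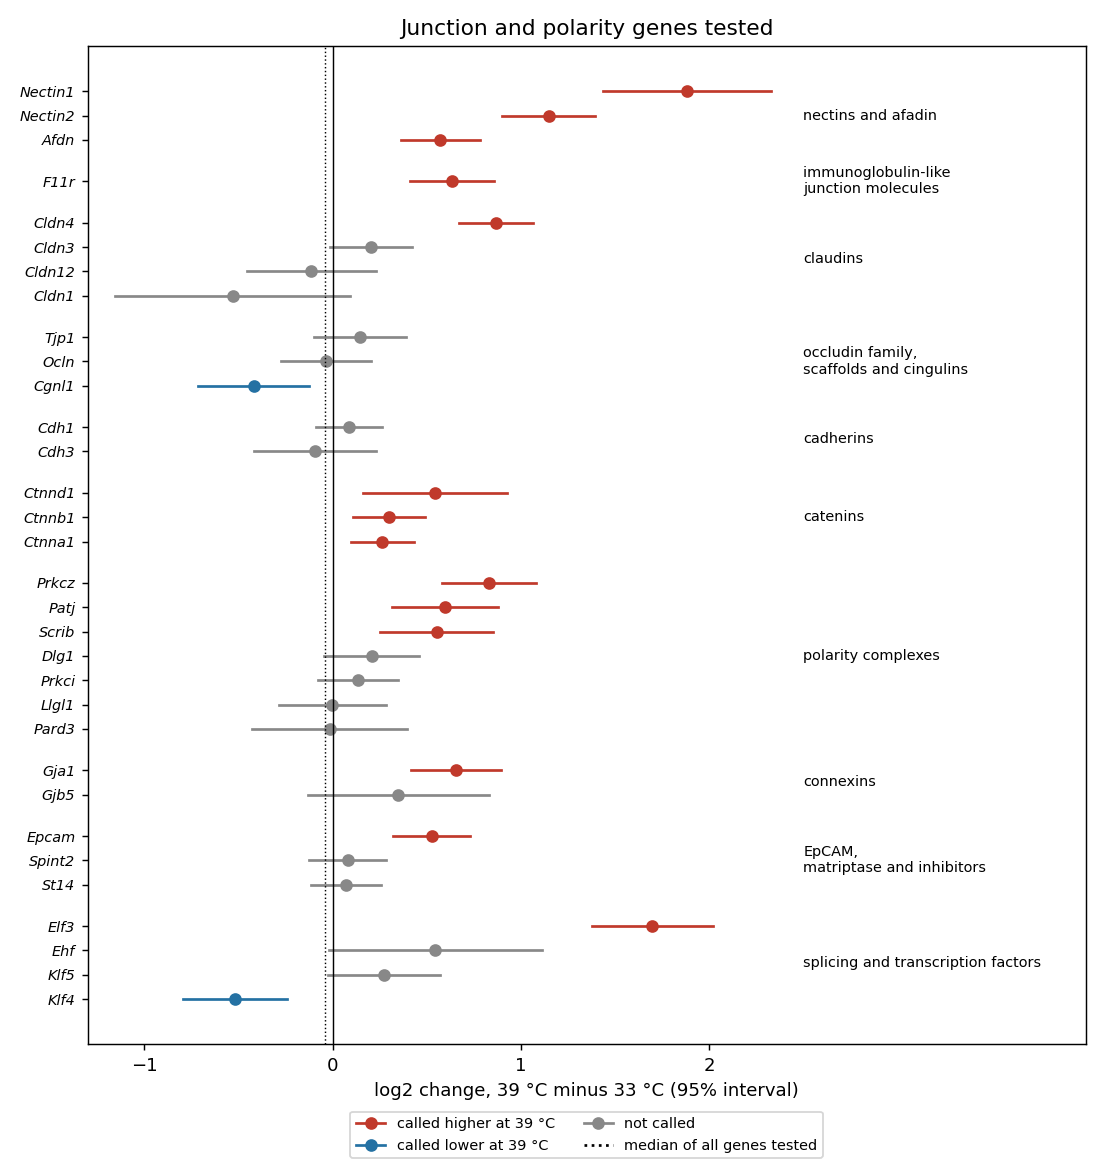
Log2 change at 39 °C relative to 33 °C (x axis, normalised log2 units) of each of the 32 tested members, grouped by role, with points for the fitted change, bars for the 95% interval and a dotted line at the median of all genes tested (-0.04). The 14 genes called higher are red, the 2 called lower blue and the 16 not called grey. Over all genes tested, 23.1% were called higher and 26.1% lower. All 3 catenins (2 of which turn sign with spike-in scaling) are red, and both cadherins are grey. The 3 nectin or afadin genes are red by their brightest probe sets. A further Nectin2 probe set was called lower (-0.82), and the further Afdn probe sets were not called.

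**Figure D2:**
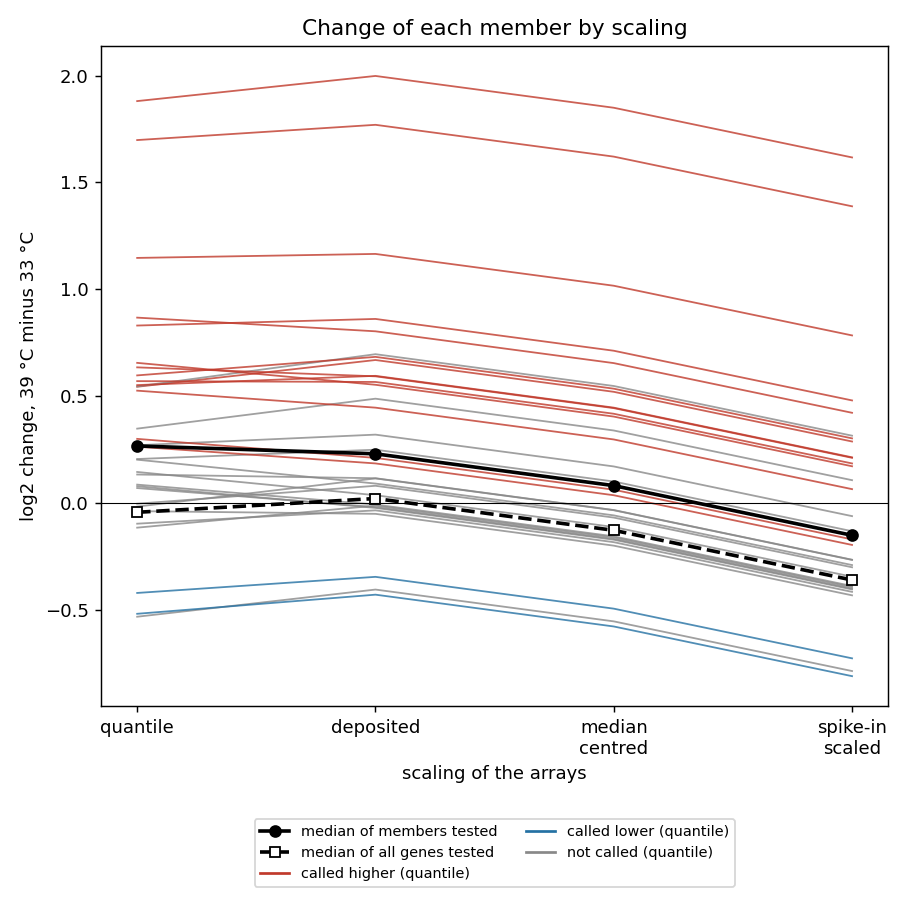
Log2 change at 39 °C relative to 33 °C (y axis) of each tested member under 4 scalings of the arrays (x axis), 1 thin line per gene (red called higher, blue called lower and grey not called after quantile normalisation), with the medians of the members (filled circles) and of all genes tested (open squares). Spike-in scaling lowers both medians, to -0.15 and -0.36, and the members' median stays above that of all genes.

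Nectins are immunoglobulin-like adhesion molecules that bind one another across the cell gap and recruit afadin. Nectin1 had the largest change of the list. Its levels were 8.72 and 8.52 at 39 °C, against 6.54 and 6.95 at 33 °C. The groups lay far apart, with 1 of the 33 °C arrays under the limit for dim genes, and Nectin1 rose 3.68-fold, a log2 change of 1.88 ± 0.20 (SE) with an adjusted p of 2.23e-05. Afdn, the afadin that ties nectins to actin, had levels of 10.89 and 10.88 at 39 °C and 10.33 and 10.30 at 33 °C. It rose by 0.57 ± 0.10 (SE; adjusted p 0.000485), while its further probe sets had changes of 0.18 and -0.07 and were not called. With the mean of its probe sets Afdn changed by 0.23 and with spike-in scaling by 0.19, without a call in either.

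Nectin2 gave opposite results by probe set. The brighter probe set read 10.45 and 10.65 at 39 °C against 9.39 and 9.42 at 33 °C, and rose by 1.15 ± 0.11 (SE; adjusted p 1.13e-05). A second one read 8.69 and 8.32 at 39 °C against 9.27 and 9.38 at 33 °C, and fell by 0.82 ± 0.15 (SE; adjusted p 0.000794) on the log2 scale. Neither probe set's groups overlapped. The fall of the second probe set was called under every scaling and with each array left out, at log2 changes between -0.64 and -1.12. Another probe set lay under the limit for dim genes, with a difference of 0.64. With the 3 averaged, the change was 0.32 and not called (adjusted p 0.0990), so the gene has no direction that holds for all its probe sets. The table does not say which transcript of Nectin2 each probe set detects.

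F11r encodes JAM-A, an immunoglobulin-like protein of the tight junction that binds scaffold proteins. It read 11.27 and 11.34 at 39 °C and 10.57 and 10.77 at 33 °C, without overlap. It rose by 0.64 ± 0.10 (SE; adjusted p 0.000352), and by 0.21 without a call with spike-in scaling.

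Among the claudins, 1 of 4 tested was called, or 25%, against 49.1% of all genes. Cldn4, a claudin that tightens the barrier to sodium, read 11.80 and 11.78 at 39 °C against 10.97 and 10.87 at 33 °C. The replicates were close and the groups apart, and Cldn4 rose 1.82-fold, a log2 change of 0.87 ± 0.09 (SE; adjusted p 1.68e-05). Cldn3, a barrier-forming claudin, is the direct neighbour of Cldn4 among protein-coding genes in the RefSeq table of assembly GRCr8. It read 12.13 and 12.12 at 39 °C and 11.79 and 12.05 at 33 °C. Its change of 0.20 had a 95% interval of -0.02 to 0.42 and was not called. Without permissive replicate 2 the Cldn3 change was 0.34 and called, and with spike-in scaling it was -0.29 and called. Whether Cldn4 and Cldn3 differ in their change was not tested. Cldn1, a claudin widely needed for epithelial barriers, read 6.94 and 6.50 at 39 °C against 7.58 and 6.92 at 33 °C. The groups overlapped, and its change of -0.53 (interval -1.16 to 0.09) was not called, though it was called without permissive replicate 2 (-0.86) and with spike-in scaling (-0.79). Cldn12 changed by -0.11 (interval -0.46 to 0.23). Cldn2, which forms pores for cations, Cldn7 and Cldn11 lay under the limit on average, between 4.31 and 6.32 on single arrays of their brightest probe sets, and were not tested.

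Occludin and the scaffolds were not called, apart from the cingulin relative Cgnl1. Ocln encodes occludin, a membrane protein found along the claudin strands. It read 10.49 and 10.74 at 39 °C and 10.68 and 10.62 at 33 °C. The groups overlapped, with a change of -0.04 (interval -0.28 to 0.20), and a second Ocln probe set changed by 0.05. Tjp1 encodes ZO-1, the scaffold that links claudins to actin, and read 12.00 and 12.03 at 39 °C and 11.70 and 12.05 at 33 °C. Its change of 0.15 had an interval of -0.10 to 0.39, and the single low array was permissive replicate 1. Without permissive replicate 2 the Tjp1 change was 0.32 and called, and with spike-in scaling it was -0.34 and called. Cgnl1, or paracingulin, is a cytoplasmic protein of epithelial junctions. It read 8.88 and 9.02 at 39 °C against 9.24 and 9.49 at 33 °C. Its change of -0.42 ± 0.13 (SE; adjusted p 0.0227) was called lower. That call did not hold when nonpermissive replicate 1 (-0.35) or permissive replicate 2 (-0.29) was left out, nor on the deposited scale (-0.34).

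Neither tested cadherin was called. Cdh1 encodes E-cadherin, the main adhesion molecule of epithelial adherens junctions. It read 12.53 and 12.52 at 39 °C and 12.46 and 12.42 at 33 °C. These arrays lay within a narrow range, and the change of 0.09 had an interval of -0.09 to 0.26. Cdh3, the P-cadherin of basal epithelial cells and the direct neighbour of Cdh1 in the same gene table, changed by -0.10 (interval -0.42 to 0.23). With spike-in scaling Cdh1 was at -0.39 and Cdh3 at -0.41, and both were called. Cdh2, the N-cadherin of mesenchymal and neural cells, read 4.36 and 5.56 at 39 °C and 6.37 and 5.29 at 33 °C by its brighter probe set, under the limit for dim genes. Cdh17, a cadherin of intestine, lay under it too, between 5.35 and 6.21.

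The 3 catenins were called higher by small amounts, where 23.1% of all genes were called higher, and 2 of them turned sign with spike-in scaling. Ctnna1, the alpha-catenin that couples the cadherin complex to actin, read 13.32 and 13.28 at 39 °C and 13.04 on both 33 °C arrays. Its change was 0.26 ± 0.08 (SE; adjusted p 0.0135). Ctnnb1 encodes beta-catenin, which binds the cadherin tail and also acts in Wnt signalling, and read 12.70 and 12.54 at 39 °C against 12.33 and 12.30 at 33 °C. Its change was 0.30 ± 0.09 (SE; adjusted p 0.0136), and further Ctnnb1 probe sets changed by 0.14 and 0.12 without a call. Both calls were lost without nonpermissive replicate 1 (0.24 for Ctnna1 and 0.22 for Ctnnb1), on the deposited scale (0.19 and 0.21) and with median centring (0.04 and 0.06). With spike-in scaling the changes were -0.20 and -0.17, not called. Ctnnd1 is p120-catenin, which holds cadherins at the membrane, and read 8.49 and 8.45 at 39 °C against 8.13 and 7.72 at 33 °C. Its change of 0.54 ± 0.17 (SE; adjusted p 0.0222) lost its call without nonpermissive replicate 1 (0.52), nonpermissive replicate 2 (0.57) or permissive replicate 2 (0.34), and with spike-in scaling (0.29).

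**Figure D3:**
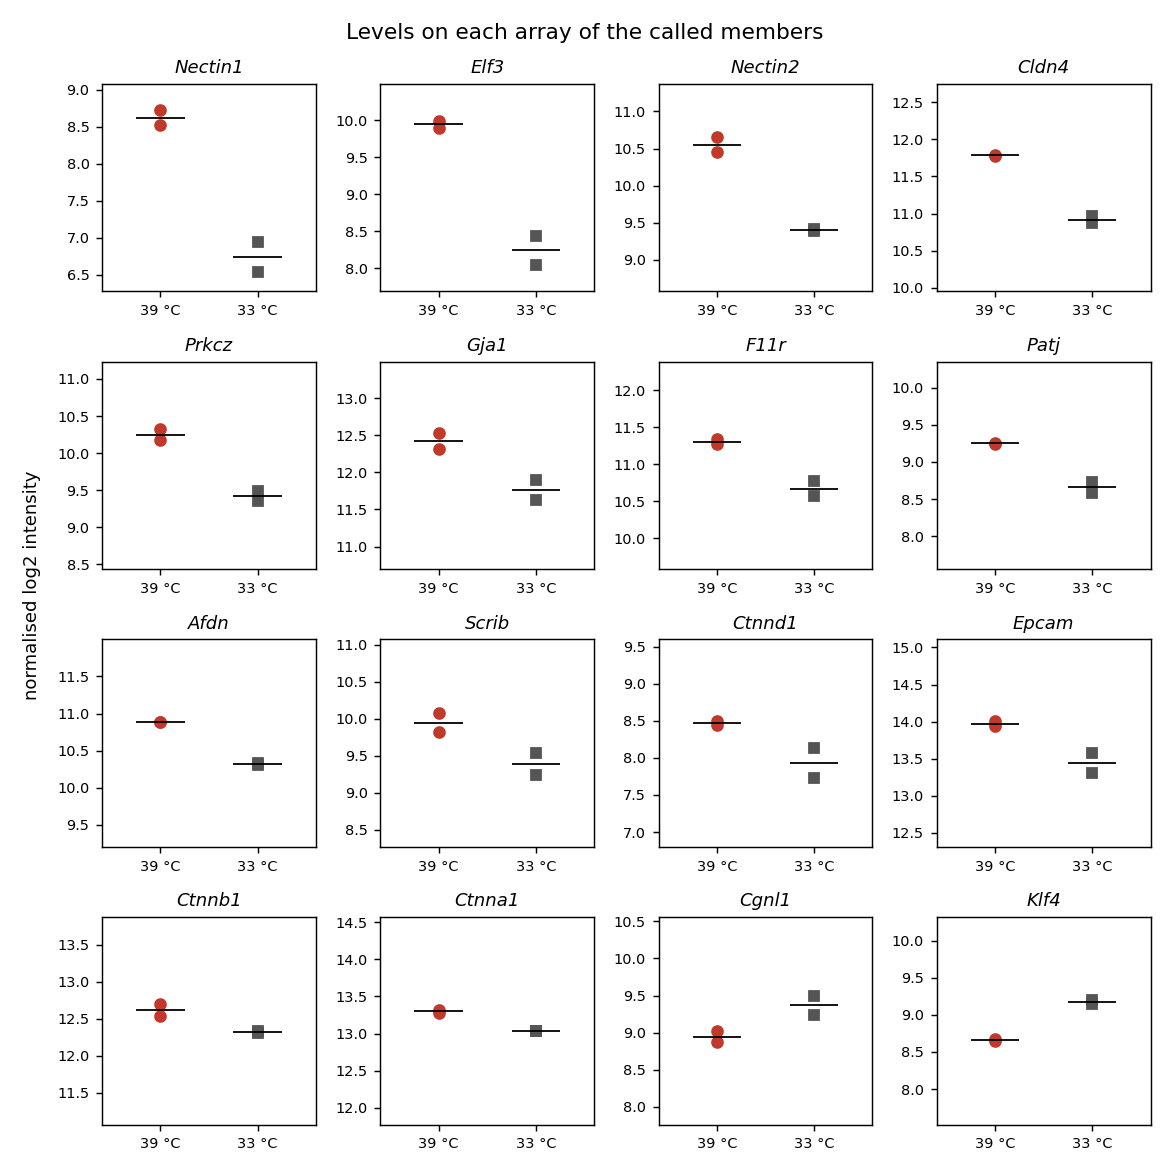
Normalised log2 intensity (y axis, its own range of the same length in each panel) on each array at 39 °C (red circles) and 33 °C (grey squares) of the 16 called members, in order of their change, with lines at the group means of 2 arrays. The groups do not overlap in the 16 panels, which were chosen because they were called, nor in 75.1% of all genes tested. Nectin1 and Elf3 are farthest apart, and Cgnl1 and Klf4 lie lower at 39 °C.

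Of 7 tested polarity genes 3 were called, all higher, a called share of 42.9% against 49.1% of all genes. Of the 3, 1 each belongs to the Par, Crumbs and Scribble complexes. Prkcz encodes the atypical protein kinase C zeta, the enzyme of the Par complex. It read 10.32 and 10.18 at 39 °C against 9.35 and 9.49 at 33 °C, and rose 1.78-fold (log2 change 0.83 ± 0.11 SE, adjusted p 0.000118). The related kinase gene Prkci changed by 0.13 (interval -0.08 to 0.35), and Pard3, the Par-3 scaffold of the same complex, by -0.02 (interval -0.43 to 0.39). Patj is a scaffold of the Crumbs complex. It read 9.25 and 9.26 at 39 °C and 8.73 and 8.58 at 33 °C, with a change of 0.60 ± 0.13 (SE; adjusted p 0.00252) that was not called with spike-in scaling (0.30). Scrib is the scaffold of the basolateral Scribble complex. It read 10.07 and 9.82 at 39 °C against 9.54 and 9.24 at 33 °C, with a change of 0.55 ± 0.14 (SE; adjusted p 0.00597). The nearest arrays of the Scrib groups were about as far apart as its replicates, and its call was lost without nonpermissive replicate 1 (0.43) and with spike-in scaling (0.21). Its partners Dlg1 and Llgl1 changed by 0.21 (interval -0.05 to 0.46) and by -0.0025 (interval -0.29 to 0.28).

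Connexins form the channels of gap junctions, which pass small molecules between cells. Gja1, connexin 43, read 12.32 and 12.53 at 39 °C and 11.63 and 11.90 at 33 °C, and rose by 0.66 ± 0.11 (SE; adjusted p 0.000469). A second Gja1 probe set above the limit changed by -0.04 and was not called, and the mean of the probe sets changed by 0.17 without a call, as did Gja1 with spike-in scaling (0.17). Gjb5, a connexin of stratified epithelia, read 7.96 and 8.16 at 39 °C and 7.39 and 8.03 at 33 °C. Its change of 0.35 (interval -0.13 to 0.83) was called only without permissive replicate 2, where it was 0.67, among the alternatives run. Gjb2, connexin 26, lay under the limit, between 5.15 and 5.77.

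**Figure D4:**
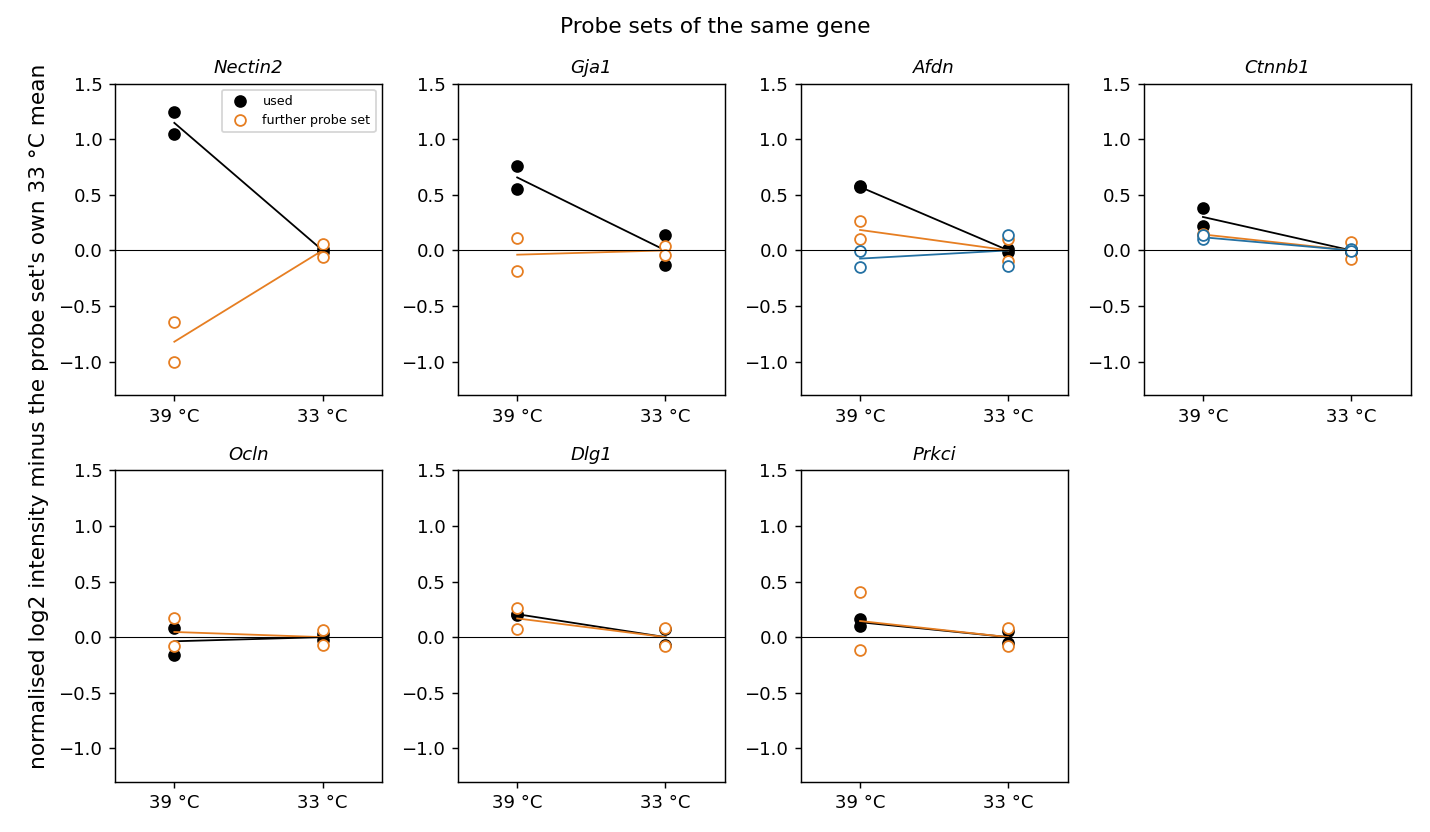
Normalised log2 intensity on each array (y axis, each probe set set to 0 at its own 33 °C mean) at 39 °C and 33 °C for the 7 members with more than 1 probe set above the dim limit, with filled points for the probe set used, open orange or blue points for further ones and lines through the means of 2 arrays. The Nectin2 probe sets move in opposite directions, by 1.15 and -0.82; the further Gja1 probe set stays near 0, while the Dlg1, Ctnnb1 and Prkci probe sets slope the same way.

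Epcam encodes an epithelial adhesion molecule that steadies claudins. It read 14.01 and 13.94 at 39 °C and 13.31 and 13.58 at 33 °C, and rose by 0.53 ± 0.09 (SE; adjusted p 0.000745), with 0.07 and no call with spike-in scaling. St14 is matriptase, a membrane protease of epithelia that acts on EpCAM, and Spint2 is one of its inhibitors. St14 read 11.65 and 11.69 at 39 °C and 11.60 on both 33 °C arrays, a change of 0.07 (interval -0.12 to 0.26). Spint2 changed by 0.08 (interval -0.12 to 0.28). With spike-in scaling both were at -0.40 and called.

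Among the transcription factors of epithelia, Elf3 rose and Klf4 fell. Elf3, an Ets-family activator of epithelial genes, read 9.98 and 9.90 at 39 °C against 8.05 and 8.43 at 33 °C. The groups were far apart, and it rose 3.24-fold (log2 change 1.70 ± 0.15 SE, adjusted p 4.38e-06). Its relative Ehf read 7.01 and 7.21 at 39 °C and 6.72 and 6.41 at 33 °C, where its mean lay under the limit for dim genes. The Ehf change of 0.55 (interval -0.02 to 1.11) was not called, though it was called on the deposited scale (0.70) and without an intensity trend. Klf4, a zinc finger factor of barrier epithelia, read 8.67 and 8.64 at 39 °C against 9.15 and 9.20 at 33 °C, and fell by 0.52 ± 0.13 (SE; adjusted p 0.00541) on the log2 scale. Klf5, a related factor of dividing epithelial cells, changed by 0.27 (interval -0.03 to 0.57), and by 0.42 with a call without permissive replicate 1. With spike-in scaling Klf5 was at -0.06, and whether its change differs from that of Klf4 was not tested.

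Promoters of the members, 250 bases before to 50 after the annotated start, were searched on both strands for 3 motifs: CACCTG, the E-box that Snail and Zeb repressors bind, AGGAAG of Ets factors such as Elf3, and AACNNGTT of Grainyhead-like factors. RefSeq sequences of build GRCr8 were matched for 35 of the 56 symbols. CACCTG was present in 15 of the 35, or 42.9%, against 18.7% of all 27457 promoters. The member promoters had a median GC content of 66.3%, against 52.3% for all. Among 6765 other promoters with a GC content of 57.7% to 69.8%, the share with CACCTG was 21.1%. This band runs from the lower to the upper quartile of the members, whose full range was 33.7% to 77.0%. The 42.9% covers all 35 members, also those outside the band, so the 2 shares are not matched for GC content. Of 8 matched members called higher 5 held it, and of 13 other tested members 3 did. The remaining members with CACCTG were Cldn6, Cldn7, Cldn11, Crb3, Gjb2, Spint1 and Tjp3, whose levels were not tested. AGGAAG was found in 9 of the 35 (25.7%, against 34.3% of all promoters), and AACNNGTT in 2 (5.71%, against 4.13%). A match describes the sequence and does not show binding. The promoters of the 5 members called higher that hold CACCTG are shown because, of the 3 motifs, this one had the share farthest above that of all promoters, with matches to the motifs in capitals and CAGGTG as CACCTG on the other strand.
Elf3, chr13:49247037-49247336, minus strand: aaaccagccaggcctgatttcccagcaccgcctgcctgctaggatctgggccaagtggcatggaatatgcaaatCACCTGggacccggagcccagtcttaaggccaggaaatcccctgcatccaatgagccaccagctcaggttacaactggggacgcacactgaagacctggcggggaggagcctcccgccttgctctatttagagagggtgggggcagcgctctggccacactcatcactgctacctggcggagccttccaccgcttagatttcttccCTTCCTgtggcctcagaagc
Prkcz, chr5:171212625-171212924, minus strand: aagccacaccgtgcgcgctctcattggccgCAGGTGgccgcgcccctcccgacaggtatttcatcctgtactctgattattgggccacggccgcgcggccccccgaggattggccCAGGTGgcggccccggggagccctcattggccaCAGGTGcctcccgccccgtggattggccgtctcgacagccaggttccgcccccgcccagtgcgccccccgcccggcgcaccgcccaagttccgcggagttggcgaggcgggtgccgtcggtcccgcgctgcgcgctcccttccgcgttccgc
F11r, chr13:86405979-86406278, plus strand: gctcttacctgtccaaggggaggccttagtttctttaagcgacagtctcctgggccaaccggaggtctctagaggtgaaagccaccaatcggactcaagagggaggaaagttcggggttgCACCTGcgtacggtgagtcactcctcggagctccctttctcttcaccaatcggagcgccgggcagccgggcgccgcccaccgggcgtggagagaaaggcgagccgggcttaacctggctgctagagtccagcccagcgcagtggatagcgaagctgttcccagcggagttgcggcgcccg
Patj, chr5:118177373-118177672, plus strand: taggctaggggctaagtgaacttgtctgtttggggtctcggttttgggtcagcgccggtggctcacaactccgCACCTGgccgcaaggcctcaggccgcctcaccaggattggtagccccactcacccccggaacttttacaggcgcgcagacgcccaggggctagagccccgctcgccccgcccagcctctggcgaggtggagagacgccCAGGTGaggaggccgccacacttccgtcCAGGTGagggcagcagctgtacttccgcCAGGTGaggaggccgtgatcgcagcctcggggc
Epcam, chr6:12649629-12649928, minus strand: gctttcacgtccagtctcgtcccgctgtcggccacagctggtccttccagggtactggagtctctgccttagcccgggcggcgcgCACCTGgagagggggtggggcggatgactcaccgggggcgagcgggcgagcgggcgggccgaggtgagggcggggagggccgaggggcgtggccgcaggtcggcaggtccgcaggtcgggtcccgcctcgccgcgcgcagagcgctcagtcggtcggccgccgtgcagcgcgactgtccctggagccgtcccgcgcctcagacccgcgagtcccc

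The Elf3 promoter had a CACCTG match that began at position -176 from the start and an AGGAAG match, read as CTTCCT, that began at position 31. Prkcz had 3 CACCTG matches, at positions -220, -135 and -102, and Patj had 4, at -177, -39, -11 and 18. F11r and Epcam had 1 each, at -130 and -165. Of the Snail and Zeb repressors, only Snai1 and Zeb1 had a probe set named here, and both were dim. Of 12 listed repressors and opposing factors of the epithelial state, 9 had a probe set, and Twist1, Twist2 and Prrx1 lay under the limit as well. Of the 4 tested, 1 was called, or 25%, against 49.1% of all genes. This was Ets1, an Ets factor of invasive and mesenchymal cells, called lower at -0.39 ± 0.12 (SE). None of the 4 was called higher, where 23.1% of all genes were. The Ets1 call was lost without nonpermissive replicate 1 (-0.28) or permissive replicate 1 (-0.30).

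Further genes outside the list comprised other junction, polarity, connexin and epithelial genes, and the repressors and opposing factors above. Of 132 such genes 77 had a probe set and 44 were tested, with 20 called higher and 6 lower, or 59.1% called against 49.1% of all genes. Without the repressors and opposing factors, 20 of 40 were called higher and 5 lower. The median log2 change of the 44 was 0.23. Calls of higher level were 76.9% of their calls, against 47.0% over all genes. With spike-in scaling 11 were called higher and 14 lower, or 44.0% of calls higher, against 19.2% over all genes. The counts per list below stand against 23.1% called higher and 26.1% called lower over all genes. Among 11 further tight junction genes 5 rose and 1 fell. Mpdz, a scaffold related to Patj, rose by 0.86 ± 0.15, the angiomotin relative Amotl1 by 0.76 ± 0.10 (0.47 and not called with the mean of its probe sets), and Rab3b, a vesicle GTPase, by 0.75 ± 0.23 (SE). Ybx3, the ZONAB factor that binds ZO-1, fell by 0.48 ± 0.09 (SE) on the log2 scale. Among 12 adherens junction and nectin genes 7 rose and 1 fell. The receptor phosphatases Ptprf, Ptprj and Ptprm, which act at cell contacts, had log2 changes of 1.14 ± 0.11, 1.12 ± 0.34 and 0.89 ± 0.16 (SE). Ptprj passed the filter only through its 39 °C level, with a 33 °C mean of 6.24 under the limit. Nectin4, named after its value was seen because it is the other nectin measured, read 7.86 and 7.91 at 39 °C against 7.12 and 6.95 at 33 °C. It rose by 0.85 ± 0.20 (SE; adjusted p 0.00408). Cadm1, a nectin-like adhesion molecule, changed by -0.59 ± 0.17 (SE). 

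Of 8 further polarity genes 4 rose and 1 fell, or 62.5% called against 49.1% of all genes. Dlg3 and Dlg5, relatives of Dlg1, had changes of 0.63 ± 0.19 and 0.62 ± 0.17, and Mark2, the Par-1 kinase of the basolateral side, rose by 0.45 ± 0.11 (SE). Lin7c, a partner of the Pals1 scaffold, read 7.47 and 7.59 at 39 °C against 8.58 and 8.57 at 33 °C and fell by 1.05 ± 0.16 (SE). Gja4, connexin 37, was the only further connexin above the limit and fell by 0.82 ± 0.20 (SE). Among 8 epithelial factors and membrane proteases 4 rose and 1 fell, the same called share of 62.5%. Foxa2, a forkhead factor of airway epithelium, rose by 1.53 ± 0.16 and Prss22, a tryptase-like protease of airways, by 1.27 ± 0.09 (SE). Prss8 is prostasin, a membrane protease that works in a cascade with matriptase, and read 10.45 and 10.37 at 39 °C against 8.89 and 8.90 at 33 °C. It rose 2.86-fold (log2 change 1.52 ± 0.11 SE, adjusted p 1.37e-06), whereas St14 was not called. F2rl1 encodes protease-activated receptor 2, a receptor cut by matriptase and tryptases. It read 9.67 and 9.53 at 39 °C against 11.72 and 11.70 at 33 °C and was 4.33-fold lower (log2 change -2.11 ± 0.10 SE, adjusted p 6.79e-08), the largest change in size among all members and further genes tested here. Calls were lost when 1 array was left out for Ptprj (0.61 without permissive replicate 1), Cadm1 (-0.47 without nonpermissive replicate 2 and -0.52 without permissive replicate 1), Dlg3 (0.45 without nonpermissive replicate 1 and 0.44 without permissive replicate 2), Dlg5 (0.43 without nonpermissive replicate 2) and Rab3b (0.64 without nonpermissive replicate 2 and 0.54 without permissive replicate 2).

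**Figure D5:**
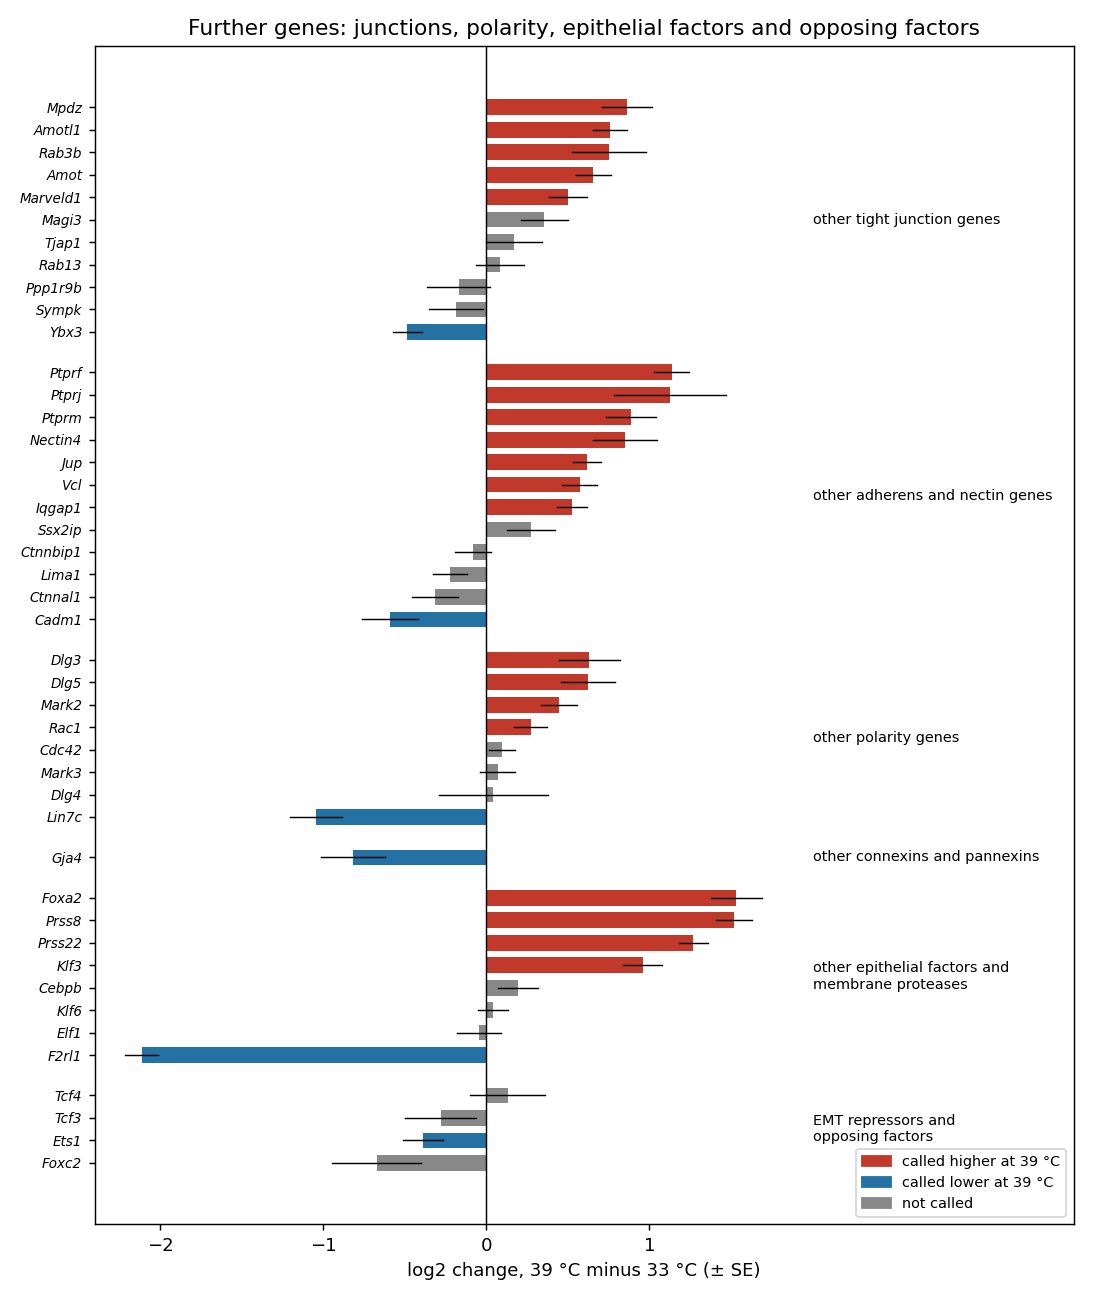
Log2 change at 39 °C relative to 33 °C (x axis) of the 44 tested further genes that are not members, by list (the lowest holds repressors and opposing factors), with bars for the fitted change and lines for its SE. Red bars are called higher (20 genes), blue lower (6) and grey not called (18); F2rl1 has the longest bar, at -2.11.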

How the data were processed

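Total RNA, treated with DNase, was copied into biotin-labelled cRNA and read on 1 Affymetrix array per sample, per the labels' protocols. The deposited values are linear intensities, 1 per probe set and array. Their mean without the highest and lowest 2% of probe sets was 500.1 or 500.2 on every array, so the values were already scaled. For the summarising software, the sources used here give no name, and detection calls were not used. Median deposited intensities were 174.3 and 171.1 at 39 °C and 152.7 and 155.6 at 33 °C, and the number of arrays limits the precision.

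Groups came from the sample titles. The values were taken as log2(intensity + 16), which understates changes of dim genes, and quantile normalised without the 57 control probe sets. Symbols came from GEO's platform annotation, and 12748 probe sets matched the RefSeq gene table by Entrez identifier, with 0 symbols changed. A gene was its brightest probe set, with those ending in _x_at used only where there was no other. The dim limit was the 40th percentile of all probe sets (log2 6.60, intensity 81.1), and 7016 of 10411 genes had a mean above it. The 39 °C and 33 °C arrays were compared by two-sided limma fits (version 3.58.1, R 4.3.3), using lmFit and then eBayes with a trend on intensity. Residual degrees of freedom were 2 and prior ones 9.23 at the median. P-values were adjusted by Benjamini-Hochberg over all genes tested, with a threshold of 0.05. Intervals are limma's 95% intervals. The procedure was tested on simulated data.

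The members and lists were chosen with earlier results of these data known. Every member could be named, with array values for called members and for those of the same complexes, and per further list the 3 largest called rises and the 3 largest called falls. The alternatives were 3 other scalings, adding 1 or 64, no dim filter or the 60th percentile, 3 other treatments of probe sets, no trend, a block on replicate number, and fits without each array in turn. Protein sequences were not used here. Plots used Python 3.11.15 with matplotlib 3.10.9.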

Additional observations from a re-analysis of the deposited data

How the results depend on the processing

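The count of members called stayed between 12 and 17 under the alternatives that keep all arrays (17 counts probe sets, of 41 tested on their own), and between 11 and 18 with 1 array left out, against 16. Of the 16 member calls, 4 were lost with the mean of probe sets, 2 without an intensity trend and 1 without the dim filter. Among the further genes and markers followed, 1, 1 and 4 calls were lost in these settings. The median log2 change of the members was 0.082 with median centring and -0.15 with spike-in scaling, against 0.27, and lay between 0.21 and 0.30 with 1 array left out. Spike-in scaling turned the sign of 7 members that were called before or after it: Ctnna1 (-0.20) and Ctnnb1 (-0.17), which were then not called, and Cldn3 (-0.29), Tjp1 (-0.34), Cdh1 (-0.39), Spint2 (-0.40) and St14 (-0.40), which were then called lower. By its construction, spike-in scaling shifts each array by 1 value, so it moves every change alike relative to the deposited scale. In 13 members not called, the value changed sign under some alternative without a call, with sizes up to 0.26. Calls of further genes at spike-in scaling were lost for Dlg3 (0.37), Dlg5 (0.36), Mark2 (0.12) and Rab3b (0.53).

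With the replicate number as a block, 16 members were called, 14 higher and 2 lower, and 3706 of all genes against 3448. The numbers share no stated batch, and the differences between replicates 1 and 2 correlated at -0.0064 between the temperatures, so the pairing check gave no sign of paired samples. The alternatives for the second Nectin2 probe set were chosen after seeing the data. Signal near the dim limit restricts what can be said of Ehf, Cldn1, Ptprj, the 6 dim members and the size of the Nectin1 change. The 33 °C mean of Nectin1 was 6.74, and its change was 2.05 after adding 1 and 1.51 after adding 64, called in both.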
